A study of Mus musculus with 12 samples.

Results

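The genes described here are 45 enzymes and regulators that carry glucose carbon through glycolysis, into the mitochondrion as pyruvate and around the citric acid cycle. They were taken by symbol from a fixed list of names among the 46517 genes counted, and all 45 were found. They were read by role: 3 genes of hexose phosphorylation and isomerization, 5 of the phosphofructokinase step, 8 from aldolase to pyruvate kinase and 2 lactate dehydrogenases. The others were 5 subunits of the pyruvate dehydrogenase complex, 5 of its kinases and phosphatases, 3 genes of pyruvate transport and carboxylation, and 14 of the citric acid cycle.

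RNA came from mice kept on regular chow and fasted overnight, from tissue that the sample labels call dissected ventromedial nucleus (VMN) and the series' design text calls dissected hypothalamus. How much tissue around the VMN the inputs hold is therefore not known. Each of 6 pools of 6 animals gave an input library, made from the tissue, and an output library, made from RNA recovered by translating ribosome affinity purification (TRAP), which isolates tagged ribosomes together with their bound transcripts. All animals carried an adeno-associated virus (AAV) for a GFP-L10 ribosomal fusion, used to obtain RNA of SF1 cells. The 3 DN pools also received an AAV for an AMPK dominant negative, a version meant to block this kinase that responds to low cellular energy, and the 3 CTRL pools did not, according to their titles and characteristics. The treatment text of the CTRL libraries names that virus as well. If CTRL animals had no second virus, the construct and the added viral load cannot be told apart in any DN value. This gave 4 groups of 3 libraries, input and output for each of CTRL and DN. The labels name neither the promoters nor the strain, the age or the means by which the tag was limited to SF1 cells, and pooling hides the differences between animals.

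As background, glycolysis splits glucose into pyruvate in the cytosol, and hexokinase, phosphofructokinase and pyruvate kinase are its steps with the tightest control. Pyruvate is then reduced to lactate by lactate dehydrogenase or carried into mitochondria, where the pyruvate dehydrogenase complex turns it into acetyl-CoA for the citric acid cycle. Kinases of the PDK family switch that complex off by phosphorylation, and phosphatases such as PDP1 switch it on. SF1 neurons of the VMN include cells whose firing responds to glucose, and AMPK raises glycolysis in several tissues through the PFKFB enzymes, which make the activator of phosphofructokinase.

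Each library held 34.6 to 55.5 M counts in genes. Mitochondrially encoded genes, none of which is a member, took 74.9% to 79.7% of them in inputs and 17.9% to 26.1% in outputs. That left 8.54 to 11.3 M nuclear counts per input and 26.2 to 32.1 M per output. The outputs held more RNA of the VMN marker Fezf1 (mean 167 normalized CPM, counts relative to a TMM-scaled library size, in CTRL outputs against 17.3 in CTRL inputs) and less of the astrocyte transporter Slc1a3 (33.8 against 201 CPM). The summed level of 16 VMN neuron markers was 700 to 773 CPM in CTRL inputs and 713 to 928 in DN inputs, and 1639 to 1894 CPM in CTRL outputs and 2022 to 2686 in DN outputs. In bulk libraries fewer cells of a type and less RNA per cell cannot be told apart. RNA of the AMPK subunits Prkaa1 and Prkaa2 averaged 34.6 and 85.6 CPM in CTRL outputs and 26.9 and 91.4 CPM in DN outputs, and counts per gene do not separate an AMPK transgene from the mouse gene.

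The sequences of some members may limit what could be counted. HTSeq sets aside reads that align equally well to several places, and several glycolytic genes have close copies in the mouse genome. Each member's longest coding mRNA was compared with all other annotated transcripts in stretches of 50 bases. All coding stretches of Gapdh (950 of 950), the phosphoglycerate kinase gene Pgk1 (1202 of 1202) and Pgam1 (713 of 713) occurred unchanged in at least 1 other gene. Over the whole Gapdh mRNA 82.5% of stretches were shared, with 222 other genes, of which 213 are annotated as pseudogenes. Reads from shared stretches can be set aside, so the counts of such genes cannot be read as their full RNA level. How many reads were lost in this way was not tested. These 2 stretches, from Gapdh and Pgam1, each lie within a coding exon and are examples, not a search for the most shared stretch of the whole mRNA. They are read 5′ to 3′ along the mRNA from GENCODE transcripts, and capitals mark bases shared with the copies, here all 50.
Gapdh, glyceraldehyde phosphate dehydrogenase, GRCm38 chr6:125162898-125162947, minus strand, found in 84 other genes (79 pseudogenes): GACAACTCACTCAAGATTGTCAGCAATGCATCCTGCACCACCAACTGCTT
Pgam1, phosphoglycerate mutase, GRCm38 chr19:41915608-41915657, plus strand, found in 2 other genes (2 pseudogenes): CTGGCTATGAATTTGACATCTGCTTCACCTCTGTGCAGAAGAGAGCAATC

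The share of coding stretches found in another annotated gene was 83.3% for Eno1, 70.8% for Pfkfb2 (with the overlapping gene model Gm29427), 57.7% for Suclg2 (with the pseudogene Gm15163) and 52.9% for Pkm. It was 46.2% for Mpc1, 43.1% for Pdhb, 40.9% for Gpi1, 35.6% for Ldhb and 28.4% for Ldha. In 22 of the 45 members no stretch of the whole mRNA was shared, and in 15 at least 10% was. Each input had 5.17 to 7.31 M reads set aside as not unique, and each output 6.04 to 7.56 M. Reads over overlapping genes fall in a separate ambiguous class, which held 0.495 to 1.34 M per library. The levels below are therefore those of reads that could be placed.

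Together the 45 genes took 0.382% to 0.461% of nuclear counts in inputs and 0.383% to 0.447% in outputs. Their summed level was 1457 to 1545 CPM in CTRL inputs, 1514 to 1860 in DN inputs, 1729 to 1918 in CTRL outputs and 1755 to 1842 in DN outputs. Levels of different genes were compared per kb of merged exons. On that scale the highest in CTRL outputs was Mdh1, the cytosolic malate dehydrogenase, at 83.8 ± 21.6 CPM per kb (SD, n = 3). Ldhb followed at 47.0 ± 5.61, Aldoa at 40.5 ± 2.79, Dlat, the acetyltransferase core of the pyruvate dehydrogenase complex, at 40.4 ± 5.29, and Dld, its dihydrolipoamide dehydrogenase, at 25.1 ± 2.14. Ldhb, Aldoa and Dlat lay within their spread of each other. Mdh1 and Ldhb were also the 2 highest means on that scale in each of the other 3 groups. The order below Mdh1 rests on the length used. Aldoa has 2911 bases of merged exons but 1549 in its longest coding transcript, against 1570 and 1304 for Ldhb. By the transcript length Aldoa stood above Ldhb in CTRL outputs.

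**Figure D1:**
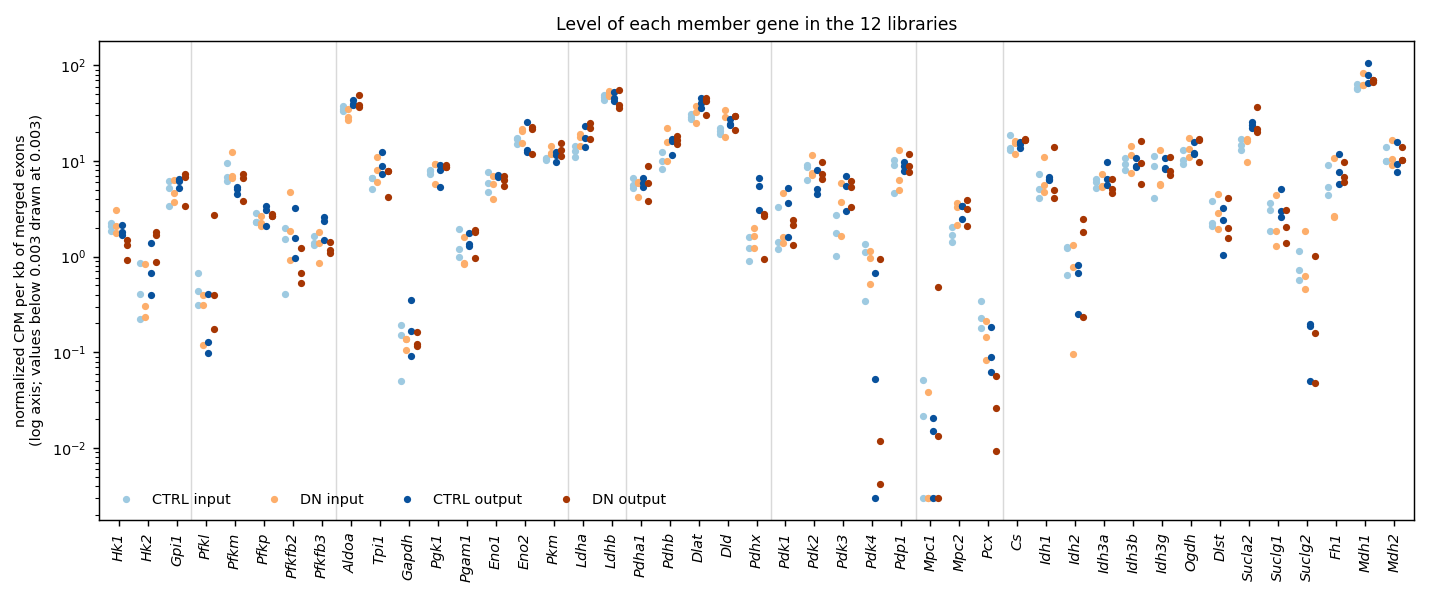
Level of each of the 45 member genes in the 12 libraries, in normalized CPM per kb of merged exons on a log axis; genes are ordered by role, with grey lines between roles, and each point is 1 library. Mdh1, Ldhb, Aldoa and Dlat lie highest, while Gapdh, Mpc1, Pcx, Pfkl, Pdk4 and Suclg2 lie lowest, some of them with a wide spread between libraries.

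At the other end in CTRL outputs stood Mpc1, a subunit of the mitochondrial pyruvate carrier, at 0.0118 CPM per kb, followed by Pcx, pyruvate carboxylase, at 0.112, Suclg2 at 0.146 and Gapdh at 0.202. Gapdh is one of the most abundant mRNAs of most tissues, and here it had 6 to 101 counts per library. Mpc1 had 0 to 68 counts per library, and it was the single member that did not pass the filter on low counts in any comparison. Its partner Mpc2 had 279 to 1938 counts, so the RNA of the 2 carrier subunits was recorded at very different levels. Pcx, which refills the cycle and is known mainly from astrocytes in brain, had 3 to 61 counts. Among members with a mean of at least 5 CPM (34 to 38 per group), the median coefficient of variation between the 3 libraries was 16.2% in CTRL inputs, 27.9% in DN inputs, 18.1% in CTRL outputs and 25.7% in DN outputs. Over all genes with a mean of at least 5 CPM it was 23.9%, 31.8%, 26.7% and 30.5%, higher than the members' median in each group. Those genes were not matched to the members in level above that floor.

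Levels were compared per kb in 16 gene pairs, most of them alternative forms of 1 enzyme and a few subunits or neighbouring enzymes, and for several 1 form led in all 12 libraries. For hexokinase, the first step, Hk1, the usual brain form, exceeded Hk2, the form known from muscle and fat, in 10 of 12 libraries. Hk1 was read at 15.7, 19.1 and 17.8 CPM in CTRL inputs, 15.2, 26.1 and 17.7 in DN inputs, 15.3, 18.4 and 14.2 in CTRL outputs, and 12.7, 11.4 and 7.82 in DN outputs. Hk2 was read at 1.32, 2.4 and 5.17 CPM in CTRL inputs, 1.82, 1.38 and 5 in DN inputs, 8.36, 2.37 and 4.06 in CTRL outputs, and 10, 10.9 and 5.21 in DN outputs. The 2 libraries in which Hk2 was the higher per kb were both DN outputs, and none was with the length of the longest coding transcript in place of merged exons. Gpi1, the isomerase that follows, ranged from 21.8 to 47 CPM.

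At the phosphofructokinase step, which commits sugar to glycolysis, the liver form Pfkl was lowest in most libraries. The muscle form Pfkm led consistently only per kb of merged exons. Pfkm was read at 31.5, 20.4 and 22.6 CPM in CTRL inputs, 23.5, 41 and 22 in DN inputs, 18, 15.2 and 17.2 in CTRL outputs, and 22.1, 24.4 and 12.9 in DN outputs. The platelet form Pfkp, which is also expressed in brain, was read at 30.8, 37.9 and 30.5 CPM in CTRL inputs, 28.3, 30.2 and 36 in DN inputs, 40.8, 45.2 and 28 in CTRL outputs, and 36, 37.8 and 35.9 in DN outputs. Per kb of merged exons Pfkm exceeded Pfkp in all 12 libraries, but per kb of the longest coding transcript Pfkp was the higher in 8 of 12, so their order rests on the length used. Pfkl was below Pfkm in all 12 libraries per kb of merged exons and in 11 by the other length. It was read at 0.654 to 4.49 CPM in 11 libraries and at 18.2 CPM, from 1328 counts, in the third DN output.

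The activators of this step differed in their spread between libraries. Pfkfb3, the form with the highest ratio of kinase to phosphatase activity and a known target of AMPK, was read at 10.1, 12.4 and 10.6 CPM in CTRL inputs, 10.4, 13.6 and 6.48 in DN inputs, 19.5, 11.3 and 18 in CTRL outputs, and 8.33, 10.7 and 8.78 in DN outputs. Pfkfb2, a form known from heart, was read at 2.92, 11.2 and 14.3 CPM in CTRL inputs, 6.64, 34 and 13.4 in DN inputs, 6.95, 11.4 and 23.4 in CTRL outputs, and 3.86, 9 and 4.91 in DN outputs. Its coefficient of variation was the highest among the members at 5 CPM in both CTRL groups, at 62.1% in inputs and 61.1% in outputs, while Fh1 had the highest in DN inputs (87.2%) and Pfkl in DN outputs (129%). Neither activator led consistently: Pfkfb3 was the higher per kb in 7 of 12 libraries.

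Of the enolases, Eno2, the neuronal form, was 1.72 to 5.45 times Eno1 per kb of merged exons in all 12 libraries, and Eno1 is one of the genes whose stretches are shared with copies. By the longest coding transcript Eno2 also led in all 12, by less. The group mean log2 ratio Eno1/Eno2 was then -1.14 to -0.54, in place of -1.79 to -1.19. Eno2 was read at 71.2 to 82 CPM in CTRL inputs, 72.2 to 102 in DN inputs, 58 to 121 in CTRL outputs and 55.2 to 107 in DN outputs, and Eno1 at 21.4 to 41.2 CPM over all 12 libraries. Of the lactate dehydrogenase subunits, Ldhb, which predominates in tissues that burn lactate, was 1.71 to 4.42 times Ldha per kb in all 12. Ldha was read at 36.5, 42.3 and 48 CPM in CTRL inputs, 63.1, 58.8 and 47.5 in DN inputs, 57.3, 77.4 and 46.7 in CTRL outputs, and 56.8, 82.8 and 73.8 in DN outputs. Ldhb was read at 76.5, 73.5 and 67.7 CPM in CTRL inputs, 85.5, 79.5 and 74.5 in DN inputs, 83.4, 66.1 and 71.7 in CTRL outputs, and 56.7, 87.6 and 60 in DN outputs. Pkm, which codes for both the adult and the embryonic pyruvate kinase of most tissues through alternative exons that counts per gene do not separate, stood at 48.5 to 76.4 CPM. Tpi1, the triose phosphate isomerase, stood at 11.6 to 34.3 CPM. The genes with fully shared coding stretches stood at 11.9 to 21.1 CPM for Pgk1, 1.68 to 3.88 for Pgam1 and 0.209 to 1.44 for Gapdh.

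**Figure D2:**
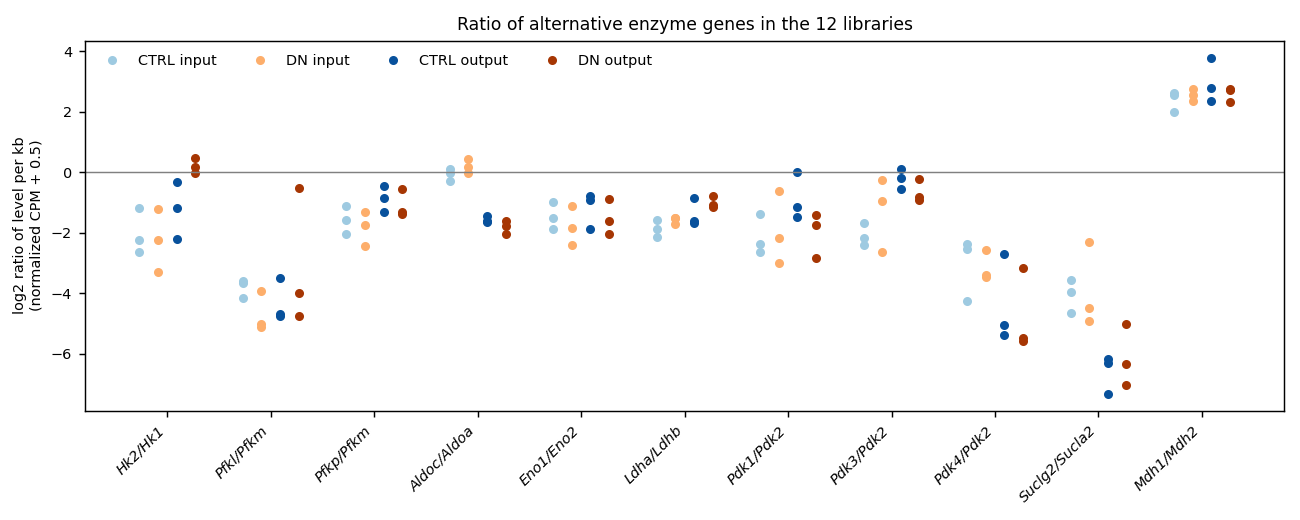
Ratio of alternative enzyme genes in each of the 12 libraries, as log2 of the ratio of levels per kb of merged exons (normalized CPM plus 0.5). Points above 0 have more of the first gene; Mdh1 exceeded Mdh2, and Eno2, Ldhb and Sucla2 exceeded Eno1, Ldha and Suclg2, in all 12 libraries, and Aldoc/Aldoa lies near 0 in inputs and below 0 in all outputs.

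Of the 4 kinases that act on pyruvate dehydrogenase, Pdk2, the most widespread, led. It was read at 27.4, 28.9 and 20 CPM in CTRL inputs, 23.6, 22.5 and 36.4 in DN inputs, 25.4, 14.4 and 16.3 in CTRL outputs, and 20.4, 30.6 and 23 in DN outputs. Per kb it exceeded Pdk1, the form known from hypoxia, in 11 of 12 libraries, Pdk3 in 11 and Pdk4 in 12. Pdk1 was read at 9.28 to 40.7 CPM over all libraries, and Pdk3 at 2.59 to 6.95 CPM in CTRL inputs, 4.24 to 15.1 in DN inputs, 7.72 to 18 in CTRL outputs and 8.49 to 15.7 in DN outputs. Pdk4, which fasting induces in muscle, heart and liver, stood at 4.8, 1.22 and 3.93 CPM in CTRL inputs and 4.03, 1.82 and 3.36 in DN inputs after the overnight fast. In outputs it stood at 0.186, 0 and 2.36 CPM in CTRL and 0.0147, 3.31 and 0.0412 in DN. No fed group was among the libraries, so whether fasting moved it cannot be read here. Pdp1, the phosphatase that reverses the kinases, was read at 21.1 to 59.4 CPM.

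In the cycle, NADP-dependent isocitrate dehydrogenase was mostly Idh1, the cytosolic form, which was 1.65 to 49.2 times the mitochondrial Idh2 per kb in all 12 libraries, the highest in a DN input with 7 counts of Idh2. Idh1 had 11.3 to 38.7 CPM and Idh2 0.25 to 6.47. The 3 subunits of the NAD-dependent enzyme were read at 23.5 to 49.9 CPM for Idh3a, 19.5 to 55.6 for Idh3b and 11.1 to 35.5 for Idh3g. Citrate synthase, Cs, which starts the cycle, stood at 69.2 to 108 CPM, Ogdh, the first subunit of the alpha-ketoglutarate dehydrogenase complex, at 50.4 to 94.9, and its partner Dlst at 10 to 42.9. Fumarase, Fh1, ranged from 8.88 to 39.8 CPM. Mdh1, with 145 to 275 CPM, was 3.98 to 14.1 times the mitochondrial Mdh2 per kb of merged exons in all 12 libraries, and Mdh2 ranged from 27.1 to 58.5 CPM. By the longest coding transcript Mdh1 also led in all 12, by less. The group mean log2 ratio Mdh1/Mdh2 was then 1.37 to 1.96, in place of 2.39 to 2.97.

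Succinyl-CoA synthetase joins the shared subunit Suclg1 with Sucla2, whose product forms ATP, or with Suclg2, whose product forms GTP. Per kb Sucla2 was 5.22 to 510 times Suclg2 in the 12 libraries. The size of that ratio is uncertain, since Suclg2 had as few as 14 counts in a library and part of its coding sequence is shared with Gm15163. Suclg1 ranged from 5.91 to 23.5 CPM.

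Output was compared with input to ask which members the ribosome-bound RNA held in excess of the tissue. Few did in either condition. In CTRL pools 1 of 44 members tested rose and none fell (edgeR quasi-likelihood test, adjusted p below 0.05), beside 431 of 13456 genes, or 3.2%, called in all and 1.78% called higher. The median member log2 fold change was 0.19, beside 0.02 over all genes, and 31 of 44 were positive. In DN pools none of 44 members was called, beside 441 of 13041 genes, or 3.38%, with 1.84% higher. There the median was 0.05, beside 0.00 over all genes, and 24 of 44 were positive. An unadjusted p below 0.05 was reached by 7 members in CTRL pools, beside 16.3% of all genes, and by 2 in DN pools, beside 15.7%, so the members' shares were near or below the background.

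The member called in CTRL pools was Pdhx, the protein that anchors dihydrolipoamide dehydrogenase in the pyruvate dehydrogenase complex. It stood at 3.51, 6.3 and 4.82 CPM in CTRL inputs and 26, 12.1 and 21.6 in CTRL outputs. All CTRL outputs were above all CTRL inputs, and the fitted log2 fold change was 2.02 ± 0.46 (SE), with an edgeR adjusted p of 0.0376. With the pool as a block the adjusted p was 0.0595, in 1 fit of all 12 libraries it was 0.0666, and without CTRL replicate 1, 2 or 3 it was 0.305, 0.133 or 0.146. In DN pools Pdhx stood at 6.46, 7.77 and 4.8 CPM in inputs and 3.73, 10.4 and 10.9 in outputs, which overlap, and its log2 fold change was 0.39 ± 0.70.

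Other members of the pyruvate dehydrogenase complex had positive but smaller differences in CTRL pools. Dlat stood at 135, 152 and 142 CPM in CTRL inputs and 224, 173 and 196 in CTRL outputs, a log2 fold change of 0.46 ± 0.16 with an adjusted p of 0.164. Pdhb, the second subunit of its first enzyme, had 0.53 ± 0.25, and Dld 0.27 ± 0.18. Pdha1, the catalytic subunit that the kinases phosphorylate, was read at 19.4 to 24.9 CPM in CTRL inputs and 19.8 to 24.8 in CTRL outputs. No overlap between outputs and inputs was seen for 9 members that were higher in CTRL outputs (Dlat, Pdhx, Mdh1, Dld, Sucla2, Tpi1, Mpc2, Aldoa and Pdk3) and 2 that were lower (Pfkm and Suclg2), beside 23.2% of all genes tested. In DN pools there were 4 higher (Hk2, Cs, Sucla2 and Aldoa) and 2 lower (Pcx and Hk1), beside 22.5%.

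**Figure D3:**
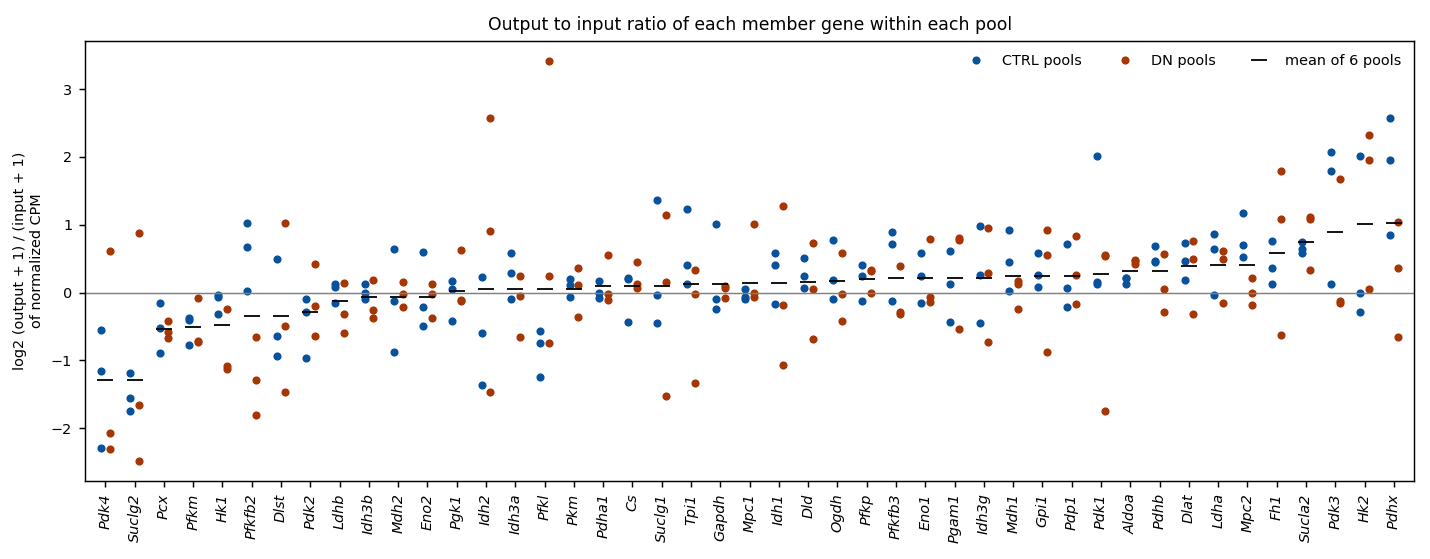
Output to input ratio of each of the 45 members within each pool, as log2 of (output + 1) over (input + 1) in normalized CPM; blue points are the 3 CTRL pools, red points the 3 DN pools, bars the mean of 6 pools, and genes are ordered by that mean. Sucla2 and Aldoa lie above 0 and Pcx, Pfkm and Hk1 below 0 in all 6 pools, whereas Pfkfb2 lies above 0 in CTRL and below 0 in DN pools.

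Within pools, 28 of the 45 members had ratios of both signs in at least 2 pools each. The ratio was above 0 in all 6 pools for Aldoa and Sucla2, beside 7.89% of the 15011 genes of the fit over all libraries. It was below 0 in all 6 for Hk1, Pfkm and Pcx, beside 7.83%. For 9 members it was above 0 in 5 pools, and for 3, Pdk4, Suclg2 and Pdk2, below 0 in 5. Shares of all genes were computed for all 6 pools only, so the counts at 5 pools have no background beside them. The 2 of 45 members above 0 in all 6 pools and the 3 below are few. Whether their shares differ from those of all genes was not tested.

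A fit over all 6 pools with the pool as a block, added after the values by condition were seen, called 1 of 44 members, beside 1397 of 15011 genes, or 9.31%, with 4.87% higher. An unadjusted p below 0.05 was reached by 9 members, beside 22.7% of genes. The median member log2 fold change was 0.15, beside -0.05 over all genes. The member called was Sucla2. It stood at 59.3, 51.7 and 67 CPM in CTRL inputs and 93.9, 87.3 and 101 in the CTRL outputs of the same pools, and at 67.6, 64.5 and 38.9 CPM in DN inputs and 145, 81.1 and 85.6 in DN outputs. Each output was above every input of its condition, and the lowest output, at 81.1 CPM, lay above the highest input. The log2 fold change was 0.76 ± 0.15 (95% interval 0.44 to 1.09), or 1.7-fold, with an edgeR adjusted p of 0.00436, and it passed under each alternative run on this fit (adjusted p 1.24e-04 to 0.0211). Tested in CTRL pools alone the adjusted p was 0.0919, and in DN pools alone 0.162.

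The alternative subunit Suclg2 was read in the opposite direction in 5 of 6 pools. It stood at 5.29, 3.37 and 2.63 CPM in CTRL inputs and 0.871, 0.918 and 0.23 in CTRL outputs, with no overlap. In DN pools it stood at 2.11, 2.87 and 8.64 CPM in inputs and 4.72, 0.223 and 0.728 in outputs, and the first DN pool was the exception. Over 6 pools its log2 fold change was -2.50 ± 0.87 with an edgeR adjusted p of 0.0909, and 0.0028 by DESeq2, so edgeR did not call it and DESeq2 did. Without DN replicate 1 the edgeR adjusted p was 0.0333. With 0.5 CPM added, the log2 ratio Suclg2/Sucla2 was lower in output than in input in all 6 pools, by -2.38 ± 1.28 on average (SD, n = 6). An exact two-sided sign-flip permutation test gave p = 0.03125, the smallest that 6 pools allow, and 0.125 after adjustment over the 16 pairs. These ratios used CPM plus 0.5, and for a gene this low the size depends on that: the mean was -1.69 with 2 CPM added and -3.10 with none. In DN pool 1 the difference was -0.09, and its sign rests on the added CPM. There Suclg2 rose from 2.11 to 4.72 CPM and Sucla2 from 67.6 to 145. With none added their ratio was slightly higher in output, so the count of 6 pools and the permutation p depend on the addition. Suclg1, the subunit both enzymes share, had ratios of both signs (-1.53 to 1.36).

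**Figure D4:**
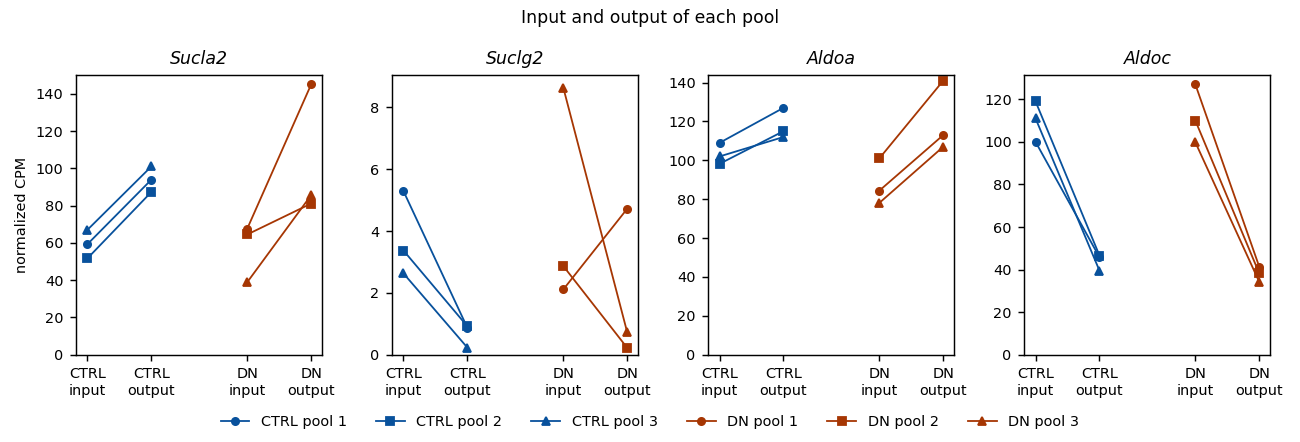
Input and output of each pool in normalized CPM for Sucla2, Suclg2, Aldoa and Aldoc; each line joins the 2 libraries of 1 pool, blue for CTRL and red for DN. Sucla2 and Aldoa were higher and Aldoc lower at output in all 6 pools, and Suclg2 was lower in 5, with DN pool 1 the exception.

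Aldolase A, Aldoa, the form of muscle and most of the brain, was read slightly higher in output in every pool. It stood at 109, 98.2 and 102 CPM in CTRL inputs and 127, 115 and 112 in CTRL outputs, and at 84.4, 101 and 78.1 CPM in DN inputs and 113, 141 and 107 in DN outputs. The log2 fold change over 6 pools was 0.33 ± 0.13 with an edgeR adjusted p of 0.131. Aldoc, the aldolase known from astrocytes, is not a member but a gene of the same step. It stood at 100, 119 and 111 CPM in CTRL inputs and 45.8, 46.6 and 39.5 in CTRL outputs, and at 127, 110 and 99.8 CPM in DN inputs and 41.3, 38.2 and 34.2 in DN outputs. It fell in CTRL pools (log2 fold change -1.34 ± 0.18, edgeR adjusted p = 0.00339) and in DN pools (-1.58 ± 0.23, adjusted p = 0.00234). The call was lost without CTRL replicate 1 or 2 (0.0704 and 0.111) and without DN replicate 3 (0.0504). Over 6 pools the adjusted p was 7.79e-06, and 5.75e-05 at most under the alternatives. The ratio Aldoc/Aldoa was lower in output by -1.76 ± 0.29 (SD, n = 6) on the log2 scale in 6 of 6 pools, with an exact permutation p of 0.03125 and an adjusted p of 0.125.

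Markers of glia moved in the same direction. Of 15 for astrocytes, 10 fell in CTRL pools and 10 in DN pools, their summed level was 3024 to 3589 CPM in CTRL inputs, 3111 to 3530 in DN inputs, 1630 to 1838 in CTRL outputs and 1102 to 1199 in DN outputs, and none was at 0 in all inputs or all outputs. Of 14 oligodendrocyte markers 8 fell in each condition, and their summed level was 1162 to 1482 CPM in CTRL inputs, 1254 to 1417 in DN inputs, 279 to 459 in CTRL outputs and 259 to 345 in DN outputs. Over 6 pools 14 of 15 astrocyte markers fell, 13 of 14 for oligodendrocytes, 5 of 8 for their precursors and 9 of 11 tested for microglia, whose marker Trem2 was at 0 in all outputs. The part of these cells in the values of Aldoc, Pcx, Suclg2 and Pdk4 was not tested. Pcx stood at 1.08, 0.859 and 1.65 CPM in CTRL inputs, 0.393, 1.01 and 0.68 in DN inputs, 0.871, 0.296 and 0.427 in CTRL outputs, and 0.0442, 0.268 and 0.124 in DN outputs. Its log2 fold change over 6 pools was -1.86 ± 1.14 with an adjusted p of 0.367. Relative to Pdha1 it was lower in 6 of 6 pools (mean log2 difference -0.89 ± 0.38 SD, exact permutation p = 0.03125, adjusted 0.125), a mean that was -0.41 with 2 CPM added and -1.94 with none. Pdk4 had -4.57 ± 1.57 over 6 pools, with an adjusted p of 0.0873 by edgeR and 3.92e-05 by DESeq2. The second DN pool went the other way, and without DN replicate 2 the edgeR adjusted p was 0.0235.

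At the phosphofructokinase step no gene passed by edgeR and no ratio passed after adjustment. Pfkm was lower in output in 6 of 6 pools, with a log2 fold change of -0.54 ± 0.24 over them and an adjusted p of 0.203 (DESeq2 0.0481). Pfkp was higher in 4 pools, and Pfkl lower in 4. The ratio Pfkp/Pfkm was higher in output in 6 of 6 pools, by 0.72 ± 0.36 (SD) on the log2 scale, with the same exact permutation p of 0.03125 and adjusted p of 0.125. In all, 4 of 16 gene pairs reached the smallest p that 6 pools allow, with 0.5 CPM added, and 0 of 16 passed after adjustment. With only 4 pairs at that smallest p, adjustment over 16 could not give less than 0.125. The 0 of 16 therefore does not show that no ratio shifted.

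Of 61 further genes of glycolysis and the cycle that are not members, 47 were tested in CTRL pools and 45 in DN pools, and the single call in each was the fall of Aldoc. Over 6 pools 5 of 51 were higher and 1 lower. The 5 were Pgm2l1, which makes glucose bisphosphate (log2 fold change 0.48, edgeR adjusted p = 0.011), Slc16a7, the neuronal monocarboxylate carrier (1.26, 0.0213), Sdha, the catalytic subunit of succinate dehydrogenase (0.43, 0.0271), Me2, a mitochondrial malic enzyme (0.87, 0.0294), and Got1, the cytosolic aspartate aminotransferase of the malate shuttle (0.47, 0.033). Of these 5, all but Pgm2l1 lost the call without at least 3 of the 6 pools in turn.

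DN outputs were compared with CTRL outputs to ask whether the construct changed the ribosome-bound RNA of these genes. No member passed: 0 of 44 by edgeR, beside 0 of 13333 genes, or 0%. DESeq2 called 0 members and 58 genes. An unadjusted p below 0.05 was reached by 1 member, beside 721 genes, or 5.41%. The median member log2 fold change was 0.07, beside 0.01 over all genes, with 24 positive and 20 negative. The 95% interval lay within a log2 change of -1 to 1 for 22 of 44 members (50%), beside 19.8% of all genes, and the median SE was 0.38, beside 0.71. For those 22 a change beyond 2-fold lies outside the interval, and for the others it does not. All genes were not matched to the members in level, here or in the inputs below.

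Several well measured members had intervals that include 0 and lie well inside -1 to 1. Sucla2 differed by 0.14 ± 0.24 (interval -0.39 to 0.67), Aldoa by 0.03 ± 0.19 (-0.37 to 0.44), Dlat by -0.04 ± 0.19 (-0.46 to 0.38), Cs by 0.16 ± 0.18 (-0.24 to 0.56), Mdh1 by -0.27 ± 0.19 (-0.69 to 0.15) and Ldha by 0.23 ± 0.26 (-0.33 to 0.79). By role the median ranged from -0.06 at the phosphofructokinase step to 0.13 in the citric acid cycle for the roles with 3 or more members tested.

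**Figure D5:**
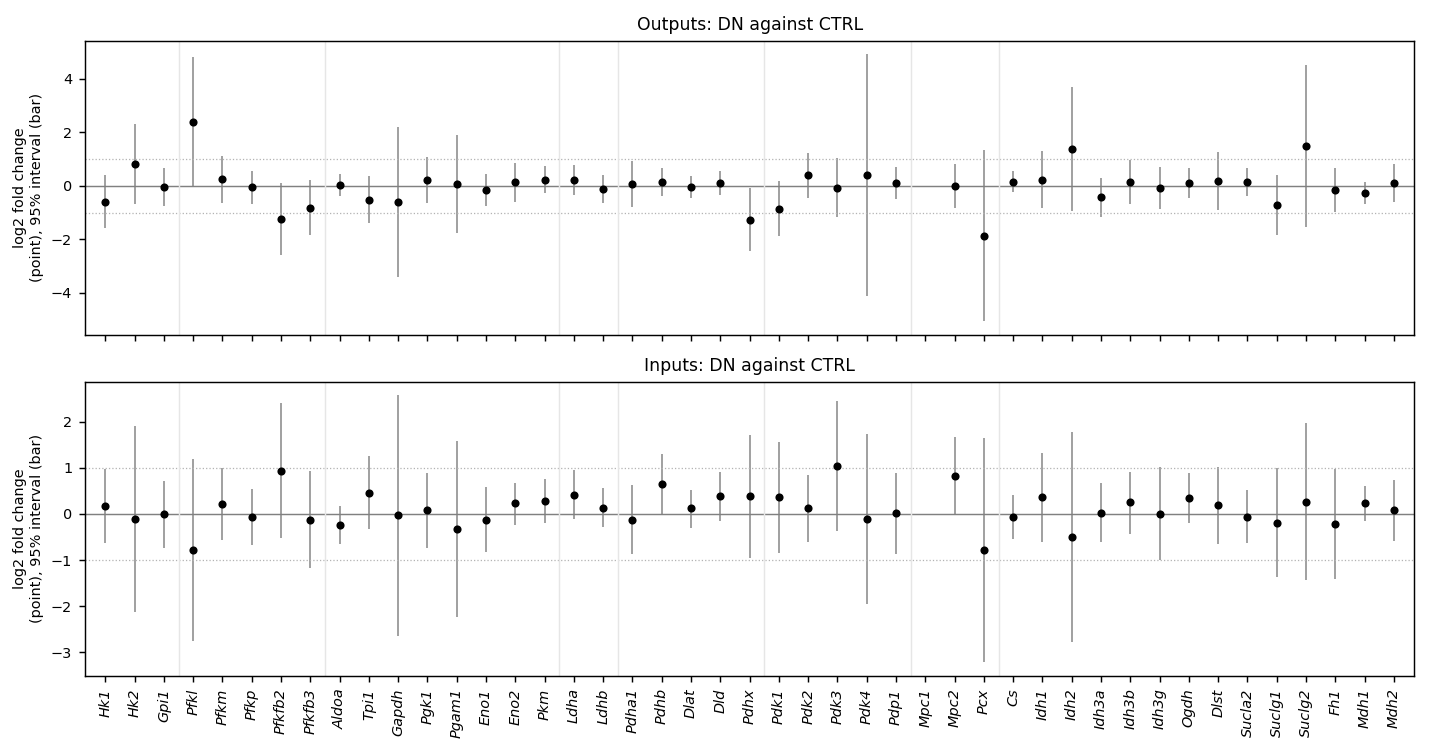
Log2 fold change of DN against CTRL for each member with its 95% interval, in outputs (upper) and inputs (lower), ordered by role with grey lines between roles; dotted lines mark -1 and 1, and Mpc1, which did not pass the filter on low counts, has no point. Most intervals cross 0, none of the differences passed after adjustment, and the widest intervals belong to Gapdh, Pdk4, Pcx, Idh2 and Suclg2.

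The 6 members with the smallest unadjusted p were Pdhx, Pfkl, Pfkfb2, Pdk1, Pfkfb3 and Suclg1, with adjusted p of 0.911 to 0.949 in edgeR. Pdhx was lower in DN outputs by a log2 fold change of -1.26 ± 0.54, with no overlap between 26, 12.1 and 21.6 CPM in CTRL and 3.73, 10.4 and 10.9 in DN. Pfkl had 2.38 ± 1.11, which became 0.43 without DN replicate 3. Pfkfb3 had -0.81 ± 0.46 with no overlap, and Pfkfb2 -1.23 ± 0.62 with overlap, which became -0.63 without CTRL replicate 3. The low family genes outside the members read 0 CPM in each CTRL output and 5.13, 10.2 and 0 in DN outputs for Pfkfb1, and 0.128, 2.43 and 1.54 against 0.118, 0.0149 and 0.44 CPM for Pfkfb4. Pdk1 had -0.85 ± 0.47 and Suclg1 -0.71 ± 0.51. Groups did not overlap for 5 members, Cs higher in DN and Pdhx, Pcx, Pfkfb3 and Hk1 lower, beside 11% of all genes. Cs stood at 92.1, 87.4 and 79.2 CPM in CTRL outputs and 94.8, 97.8 and 96.7 in DN outputs. Summed astrocyte markers did not overlap between these groups either and were lower in DN outputs, where 0 of 14 markers tested passed (median log2 fold change -0.37). Summed pan-neuronal markers did not overlap either and were higher in DN outputs (8524 to 9488 CPM against 7485 to 7936, 0 of 13 passed), as were the VMN neuron markers given above. The part of these shifts in the values was not tested.

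In inputs, which hold RNA of all cells of the tissue, no member differed between DN and CTRL by the test. It called 0 of 44 members, beside 1 of 13221 genes, or 0.00756%, and that gene is on the mitochondrial chromosome. No member reached an unadjusted p below 0.05, beside 4.46% of genes, and DESeq2 called 0 members. The median member log2 fold change was 0.10, beside 0.03 over all genes, with 27 positive and 17 negative. The interval lay within -1 to 1 for 23 of 44 members (52.3%), beside 21.3% of genes. Summed pan-neuronal markers were also higher in DN inputs, at 5752 to 6119 CPM against 4910 to 5419 with no overlap and 0 of 13 passed, and their part in the members' values was not tested.

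The smallest unadjusted p in inputs belonged to Mpc2, Pdhb, Ldha, Pdk3, Dld and Ogdh, all with positive values and an edgeR adjusted p of 0.997. Mpc2, a subunit of the pyruvate carrier, stood at 14.9, 10.4 and 12.4 CPM in CTRL inputs and 24.5, 26.7 and 15.6 in DN inputs, with no overlap. Its log2 fold change was 0.82 ± 0.39 (95% interval -0.03 to 1.68). Pdhb stood at 32.1, 38.6 and 48 CPM in CTRL inputs and 85.7, 38.7 and 61.1 in DN inputs, a difference of 0.65 ± 0.31. Ldha had 0.42 ± 0.24, Pdk3 1.04 ± 0.65, Dld 0.38 ± 0.24 and Ogdh 0.34 ± 0.25. Groups did not overlap for Mpc2 and Pkm, both higher in DN, beside 10.5% of genes. Mpc2 in outputs stood at 24.8, 24.6 and 18.3 CPM in CTRL and 28.6, 23.2 and 15.5 in DN, a log2 fold change of -0.01 ± 0.37.

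Whether the output to input difference itself differed between DN and CTRL was tested as an interaction in 1 fit of 12 libraries. It was called for 0 of 44 members, beside 0 of 15011 genes, or 0%, and DESeq2 called 0 members and 99 genes. An unadjusted p below 0.05 was reached by 3 members, beside 6.22% of genes: Pfkfb2 at -2.16 ± 0.97, Pfkl at 3.16 ± 1.44 and Pdhx at -1.63 ± 0.75, with edgeR adjusted p of 0.768 to 0.784. The value of Pfkl became 0.86 without DN replicate 3. The rise of Pdhx in CTRL pools was thus not shown to differ from its value in DN pools. Among the gene pairs, 3 of 16 reached the smallest p that 3 pools against 3 allow (exact permutation p = 0.1, adjusted 0.533): Pfkfb3/Pfkfb2, Aldoc/Aldoa and Mpc1/Mpc2. That smallest p is above 0.05, so no pair could pass this test. Mpc1 had 0 to 68 counts per library. Its ratio therefore rests largely on the added 0.5 CPM, on Mpc2 and on the second DN output, where Mpc1 stood at 1.01 CPM. The Aldoc/Aldoa difference between output and input was -1.34, -1.57 and -1.61 in CTRL pools and between -2.04 and -1.99 in DN pools. Over the 61 other genes of the pathway, 0 of 45 tested passed between DN and CTRL outputs and 0 of 44 between inputs.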

How the data were processed

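Counts of reads per Ensembl gene were deposited by the authors as whole numbers, 1 file per library, with no normalization. The submitters' processing notes name HTSeq 0.6.1, STAR 2.4.2a, cutadapt 1.3 and build GRCm38. Per the labels' protocols, every sample went through linear amplification (NuGEN Ovation V2), which can add spread for low genes. Neither the annotation release nor the strand setting is given in these sources, so overlapping and antisense genes cannot be told apart. The 5 HTSeq classes of reads without a gene (16.1% to 17.0% of all reads in inputs, 24.0% to 26.1% in outputs) were left out. Symbols, lengths, positions and transcripts came from GENCODE release 21, which held 46005 of 46517 identifiers (98.9%).

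Genes were tested in R 4.3.3 with the quasi-likelihood test of edgeR 4.0.16, two-sided, after TMM scaling. Genes were kept by filterByExpr with a count of 10 and a total of 15 as minimums, and p-values were adjusted by Benjamini-Hochberg over every gene tested, at 0.05. Fits held the 6 libraries compared, and the interaction held 12. These fits had no pool term, so they did not use the pairing of input and output. The block alternative and the fit over 6 pools did. SE is the log2 fold change divided by the root of its F. Pair ratios used CPM plus 0.5 and exact permutation tests, and pool ratios CPM plus 1. Scripts were tested on simulated data. Levels are means with SD over 3 libraries. P-values of fits without a pool term measure the spread between libraries of a group. Those of fits with the pool as a block and of the permutation tests measure the spread of output to input differences between pools.

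Groups and replicate numbers came from the titles. By the design text, input and output of 1 number come from 1 pool. Deviations from the group means correlated within pools at 0.0963, 0.035 and 0.156 in CTRL and 0.00407, -0.00229 and 0.0153 in DN, over 15011 genes. DN and CTRL pools share only a number. Between them the same correlation was -0.0134 to 0.0043 in inputs and -2.93e-06 to 0.00562 in outputs. The values of DN pools 1 and 2, at 0.00407 and -0.00229, were no larger than those of unrelated pools.

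The members and gene lists were chosen with earlier results of these data known. Named were members past the threshold, the members of the pairs described, up to 6 members with the smallest p where none passed, and up to 5 genes of the other pathway list in each direction. Of 62 such genes listed, 61 were found. Alternatives were DESeq2 1.42.0, DESeq2 size factors, other filters, no mitochondrial genes, a block, 1 fit of all libraries, other lengths and pseudocounts, and leaving out each replicate. The fit over 6 pools was added after seeing the data.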

Additional observations from a re-analysis of the deposited data

Results flagged for a closer look

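Pfkfb2 was picked out because its output to input ratio moved in opposite directions in the 2 conditions. The log2 ratio was 1.02, 0.03 and 0.67 in the CTRL pools, a mean of 0.57 ± 0.50 (SD, n = 3), and -0.65, -1.81 and -1.29 in the DN pools, a mean of -1.25 ± 0.58. The second CTRL pool lay close to 0. No other of the 45 members had ratios above 0 in all pools of 1 condition and below 0 in all pools of the other. The share of all genes with such a pattern was not computed, so the pick has no background beside it. The interaction term was -2.16 ± 0.97 (SE), with an edgeR adjusted p of 0.768 over all genes, so the difference did not pass the test. Pfkfb2 shares 70.8% of its coding 50-base stretches with the overlapping gene model Gm29427. The part of that overlap in the values was not tested.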

How the results depend on the processing

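The members' median log2 fold change ran over the alternatives from -0.06 to 0.07 between DN and CTRL outputs, 0.07 to 0.18 between inputs, 0.07 to 0.26 in CTRL pools, -0.08 to 0.15 in DN pools and 0.06 to 0.19 over 6 pools, so its sign was not stable for outputs and DN pools. By contrast 0 members were called between DN and CTRL in outputs, inputs or the interaction under any of them. Other counts moved, and the cause was not tested. With the pool as a block, the CTRL output to input comparison called 0 members in place of 1 and 527 genes in place of 431, and DN called 396 in place of 441. A block of replicate number between DN and CTRL inputs, which joins unrelated pools, called 0 genes in place of 1. Between inputs DESeq2 called 2 genes, no filter 39, and DESeq2 size factors, a mean of at least 5 CPM, no mitochondrial genes and 1 fit of all 12 libraries 0, and leaving out 1 replicate gave 0 to 8. DESeq2 called 58 genes between outputs and 99 in the interaction, where no filter gave 54. In CTRL pools DESeq2 called 2 members and 1172 genes, no filter 903 genes, and the 12-library fit 0 members. Without 1 replicate 0 members were called (lowest and highest 0) and 45 to 214 genes. In DN pools DESeq2 called 1124 genes, no filter 976 genes and 1 member (Sucla2, adjusted p 0.0359), the 12-library fit 673 genes, and leaving out 1 replicate 115 to 148. Over 6 pools DESeq2 called 4 members (Pdk4, Sucla2, Pfkm, Suclg2) and 2938 genes, no filter 3 members (Dlat, Pdk4, Sucla2), and leaving out 1 pool 1 to 2. Pfkl in DN pools had a log2 fold change of 1.99 that turned to -0.33 without DN replicate 3 and was 2.87 without DN replicate 1. The log2 ratio of Pfkp to Pfkm per kb in CTRL outputs was -0.87 with merged exons and 0.60 with the longest coding transcript. Pcx, Gapdh, Pdk4 and Suclg2 had few counts and intervals that reach beyond 2-fold, and Mpc1 had too few to be tested.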
